A study of Mus musculus with 32 samples.

Results

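The genes described here encode muscle enzymes that break down glycogen and carry glucose units through glycolysis to lactate: Pygm, Pfkm, Aldoa, Tpi1, Gapdh, Pgk1, Pgam2, Eno3, Pkm and Ldha. They were taken by gene name from the deposited expression tables, where these 10 names belong to 11 of the 53801 gene IDs. Aldoa carries both a main ID and a second one that reached at most 0.606 TPM, the length-corrected share of all transcripts scaled to a fixed total, and the main ID is used throughout. Glycogen phosphorylase, made from Pygm in muscle, releases glucose 1-phosphate from stored glycogen. Phosphofructokinase commits the sugar phosphate to glycolysis, aldolase splits it, and the enzymes below that step yield ATP and pyruvate, which lactate dehydrogenase turns into lactate. Fast-twitch fibres, which fill most of the mouse quadriceps, rely heavily on this route, and several of its steps are carried out in muscle by an isozyme that other tissues use little.

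The data are RNA sequencing of quadriceps from wild-type (WT) mice and from mice homozygous for the Col6a2 tm1(KOMP)Vlcg allele (Col6a2-/-), which lack the α2 chain of collagen VI, a protein of the matrix around muscle fibres. Females and males of each genotype were sampled at 5 and at 25 weeks of age, with 4 mice in each of the 8 groups and 1 library per mouse, 32 libraries in all. The allele came from a C57BL/6N resource and was crossed back to C57BL/6J for 5 generations, and both genotypes were bred from heterozygous parents. RNA came from cryosections of the whole frozen muscle, so each value is an average over all cells in the section: fewer fibres and less RNA per fibre cannot be told apart.

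Col6a2 itself stood at 6.60 to 51.2 TPM in the WT libraries and at 0 to 0.171 TPM in the Col6a2-/- libraries, so every library fits its genotype label. The fibre genes Acta1, Ckm and Myh4 were abundant in all 32 libraries, with at least 4534, 2174 and 2222 TPM. Transcripts of the mitochondrial chromosome took 31.9 to 46.9% of TPM and the genes whose names begin with Rn7s took 20.8 to 30.5%. The noncoding pair Gm47299 and Gm47295 took up to 7.42% in some libraries and almost nothing in others. Since TPM is a share of a fixed total, these shares press on every other gene, and the differences of single genes below were also computed after other ways of scaling the libraries. Read totals are not given in the tables, so the depth in reads is unknown, but the median coverage per base over the libraries ran from 252 for Gapdh to 7474 for Eno3. Coverage per unit of TPM differed up to 2.17-fold between libraries, which reflects depth in part and also the make-up of each library.

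The 10 genes together made up 0.631 to 0.948% of TPM in a library, and 3.34 to 4.58% of the TPM of protein-coding genes on the nuclear chromosomes. Averaged over all libraries, Aldoa was the most abundant at 2580 TPM and Eno3 followed at 1478 TPM, in first and second place in every library. Pygm (827 TPM), Pgam2 (691 TPM), Ldha (651 TPM), Pkm (578 TPM), Pfkm (471 TPM) and Tpi1 (412 TPM) formed a middle group whose order shifted from library to library. Pgk1 (251 TPM) and Gapdh (165 TPM) were the lowest. Gapdh has many near-identical genomic copies, described further on, and their part in its low level was not tested.

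**Figure D1:**
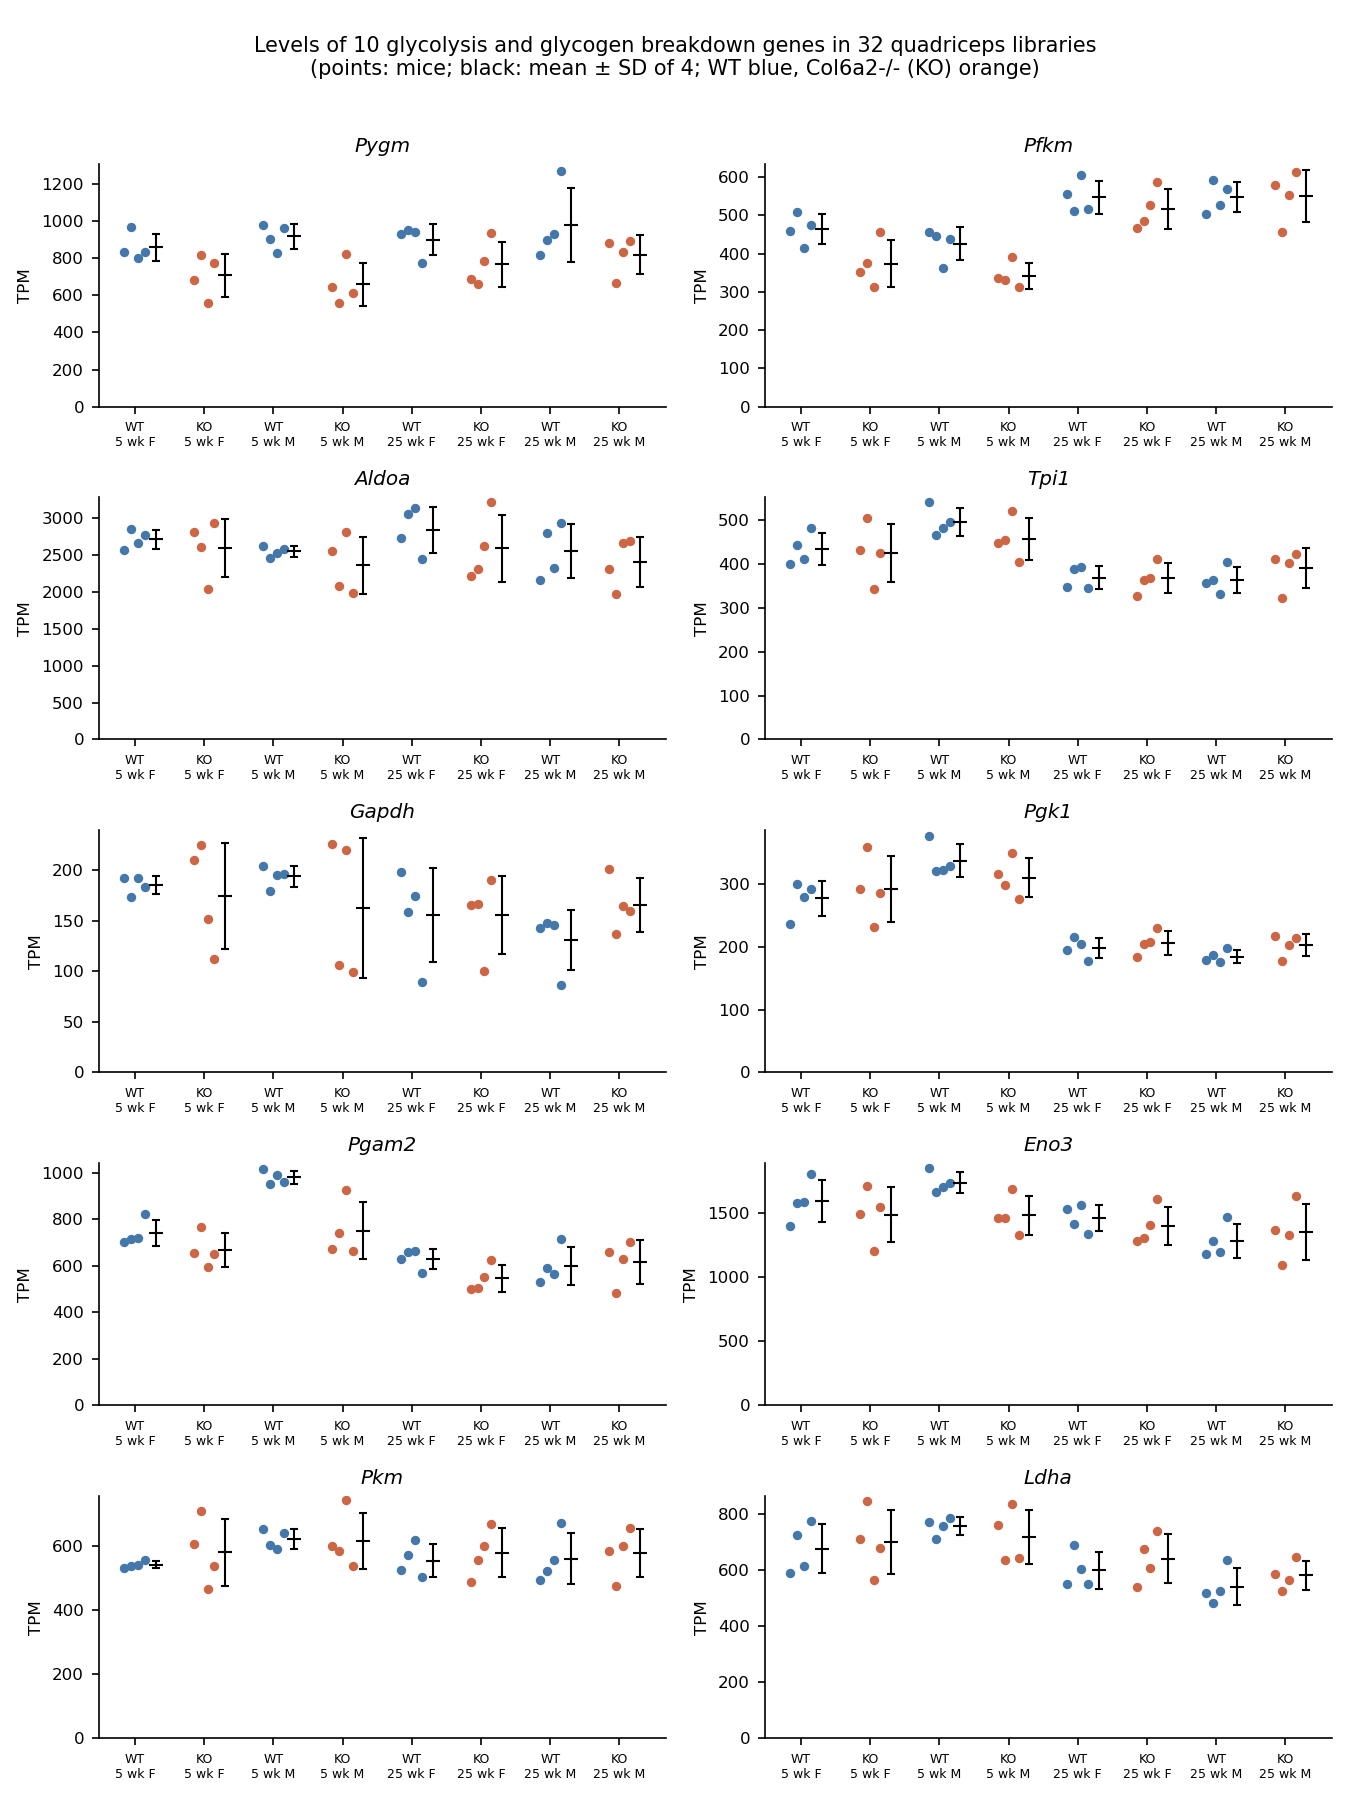
Levels of the 10 genes in TPM (vertical axes, from 0) for each of the 32 mice, by age, sex and genotype. Points are mice, and black marks give the mean ± SD of the 4 mice in a group. At 5 weeks the Col6a2-/- points for Pygm and Pfkm lie mostly below the WT points, and Pgk1 lies lower at 25 weeks in every group.

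Upstream sequence is shown for 4 genes that were all lower at 25 than at 5 weeks in WT mice, and whose windows differ in the motifs they hold. The windows are the 250 bases before a RefSeq start of each gene on build GRCm38.p6, read in the gene's own direction, and none overlaps an exon of the GENCODE M21 annotation. Pgk1 lies at chrX:106186850-106187099 on the plus strand, Ldha at chr7:46845554-46845803 on the plus strand, Pgam2 at chr11:5803797-5804046 on the minus strand and Eno3 at chr11:70656926-70657175 on the plus strand. Capitals mark ACGTG, the core of the hypoxia response element, which also lies inside the E-box CACGTG, the GC box GGGCGG bound by Sp1, and CATTCC, the M-CAT element bound by TEAD factors, each on either strand.
Pgk1: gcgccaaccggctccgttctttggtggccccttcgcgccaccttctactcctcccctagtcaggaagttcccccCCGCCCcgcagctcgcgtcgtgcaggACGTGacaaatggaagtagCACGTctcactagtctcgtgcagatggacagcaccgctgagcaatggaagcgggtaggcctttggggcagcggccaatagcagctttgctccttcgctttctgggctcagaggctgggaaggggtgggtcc
Ldha: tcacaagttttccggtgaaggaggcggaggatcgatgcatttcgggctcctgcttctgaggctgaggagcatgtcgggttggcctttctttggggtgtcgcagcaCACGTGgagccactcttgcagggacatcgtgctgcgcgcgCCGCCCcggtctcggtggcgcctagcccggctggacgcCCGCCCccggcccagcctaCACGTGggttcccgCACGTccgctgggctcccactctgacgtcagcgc
Pgam2: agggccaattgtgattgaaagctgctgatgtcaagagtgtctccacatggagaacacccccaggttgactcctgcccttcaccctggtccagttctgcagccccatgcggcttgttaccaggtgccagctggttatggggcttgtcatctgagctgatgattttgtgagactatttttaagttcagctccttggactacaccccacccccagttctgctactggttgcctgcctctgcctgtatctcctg
Eno3: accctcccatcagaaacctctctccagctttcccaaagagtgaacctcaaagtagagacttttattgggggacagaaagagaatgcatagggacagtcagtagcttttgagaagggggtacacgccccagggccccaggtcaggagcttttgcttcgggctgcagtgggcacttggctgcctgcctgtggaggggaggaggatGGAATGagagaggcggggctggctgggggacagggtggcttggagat
The Pgk1 window held 2 copies of ACGTG and 1 GC box. The Ldha window held 5 matches to ACGTG, counted on both strands, of which 4 belong to its 2 CACGTG elements, and 2 GC boxes. The window of a second Ldha start, chr7:46846832-46847081, held none of the motifs in capitals and is not shown. The Eno3 window held 1 M-CAT element, and the Pgam2 window held none of these motifs. Of the 17 windows of all 10 genes, 8 held ACGTG (those of Pygm, Pfkm, Aldoa, Pgk1, Pkm and Ldha), beside 16.57% of the 32851 promoter windows in the RefSeq table. CACGTG was in 2 of the 17 (Pfkm and Ldha, 6.02% of all windows), CATTCC in 2 (Aldoa and Eno3, 12.64%), GGGCGG in 6 (32.74%), and the loose E-box CANNTG, which holds CACGTG, in 14 (66.22%). TCAGGTT, the MEF3 element, and AAGGTCA, a site of estrogen-related receptors, were in none of the 17 windows and in 3.49% and 4.08% of all windows. Windows of the same gene can overlap, and these counts describe letters in a sequence and not bound sites.

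At 5 weeks, 3 of the 10 transcripts were lower in Col6a2-/- than in WT muscle: Pygm, which starts glycogen breakdown, Pfkm, the muscle subunit of phosphofructokinase, and Pgam2, the muscle phosphoglycerate mutase. No gene of the 10 was higher. Across all 12817 genes tested, 25.4% differed between the genotypes at this age, with 2.14% lower and 23.2% higher. Groups without overlap were found for 1.3% of all genes and for none of the 10. The median difference over all tested genes was 0.15 on the log2 scale toward Col6a2-/-, while the median of the 10 genes was -0.13, and 10 of 10 lay below the median of all genes. The count depends on scaling: with libraries rescaled by the median ratio of their genes, 9 of the 10 were lower, and after leaving out the 100 most abundant genes 6 were, while under the other 14 alternatives it was 3. The median of all genes was -0.002 with median-ratio scaling and 0.04 without the 100 most abundant genes. The share of all genes called lower is given for deposited TPM only, so the counts of 9 and 6 have no such share beside them. Pygm, Pfkm and Pgam2 were called lower in each of those 16 alternatives and after leaving out any 1 library.

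For glycogen phosphorylase, the WT females at 5 weeks had Pygm levels of 836, 968, 804 and 833 TPM, and the Col6a2-/- females had 682, 819, 559 and 775 TPM. The WT males had 980.2, 906, 829 and 962 TPM, and the Col6a2-/- males had 646, 556, 824 and 615 TPM. In males no Col6a2-/- mouse reached the lowest WT mouse, whereas in females 1 Col6a2-/- mouse, at 819 TPM, lay above the lowest WT mouse. Over both sexes the mean fell from 889.9 ± 72.5 to 685 ± 109.8 TPM (SD, n = 8 each), a difference of -0.39 in log2(TPM + 1) (SE 0.102, limma with Benjamini-Hochberg adjusted p = 0.00611). All 8 Col6a2-/- mice lay below the WT mean of their own sex.

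For phosphofructokinase, Pfkm in WT mice at 5 weeks ran from 363 to 507 TPM with a median of 451, and in Col6a2-/- mice from 312 to 456 TPM with a median of 344. The ranges overlapped, since 1 WT male was low at 363 TPM and 1 Col6a2-/- female was high at 456 TPM. The means were 445 ± 42.8 and 358 ± 48.6 TPM, a difference of -0.32 (SE 0.0817, limma adjusted p = 0.00565), and 8 of 8 Col6a2-/- mice were below the WT mean of their sex.

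In the lower part of the pathway, Pgam2 in WT females at 5 weeks stood at 701, 713, 721 and 824 TPM, and in Col6a2-/- females at 655, 768, 594 and 651 TPM. In WT males it stood at 1015, 953, 991 and 961 TPM, and in Col6a2-/- males at 672, 741, 927 and 663 TPM. The male groups did not overlap, while the female groups did. The means over both sexes were 859.7 ± 135 and 709 ± 104 TPM, a difference of -0.27 (SE 0.0849, limma adjusted p = 0.0190), with 7 of 8 Col6a2-/- mice below the WT mean of their sex. Pygm and Pgam2 were thus the 2 of 10 genes whose male groups did not overlap at 5 weeks, in a comparison where 1.55% of all tested genes were lower without overlap.

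The other 7 genes did not pass the test at 5 weeks in deposited TPM. Eno3, the muscle enolase, ran from 1406 to 1856 TPM in WT and from 1204 to 1713 TPM in Col6a2-/- mice, with a difference of -0.17 (95% interval -0.34 to 0.00, limma adjusted p = 0.138). Gapdh, which oxidises glyceraldehyde 3-phosphate, ran from 174 to 204 TPM in WT and from 98.8 to 226 TPM in Col6a2-/- mice, so the mutant group spanned the WT group on both sides. Aldoa, the aldolase of muscle, differed by -0.10 (interval -0.30 to 0.10), and Tpi1, which interconverts the triose phosphates, by -0.08 (interval -0.24 to 0.08). Pgk1, the first ATP-yielding step, differed by -0.03 (interval -0.19 to 0.13). Pkm, which makes pyruvate, differed by 0.03 (interval -0.15 to 0.21) and Ldha by -0.02 (interval -0.20 to 0.16). The intervals show that changes of the size seen for Pygm lay outside the range for Eno3, Aldoa, Tpi1, Pgk1, Pkm and Ldha on the TPM scale. The signs of Pkm, Ldha and Gapdh changed under some other scaling or measure.

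**Figure D2:**
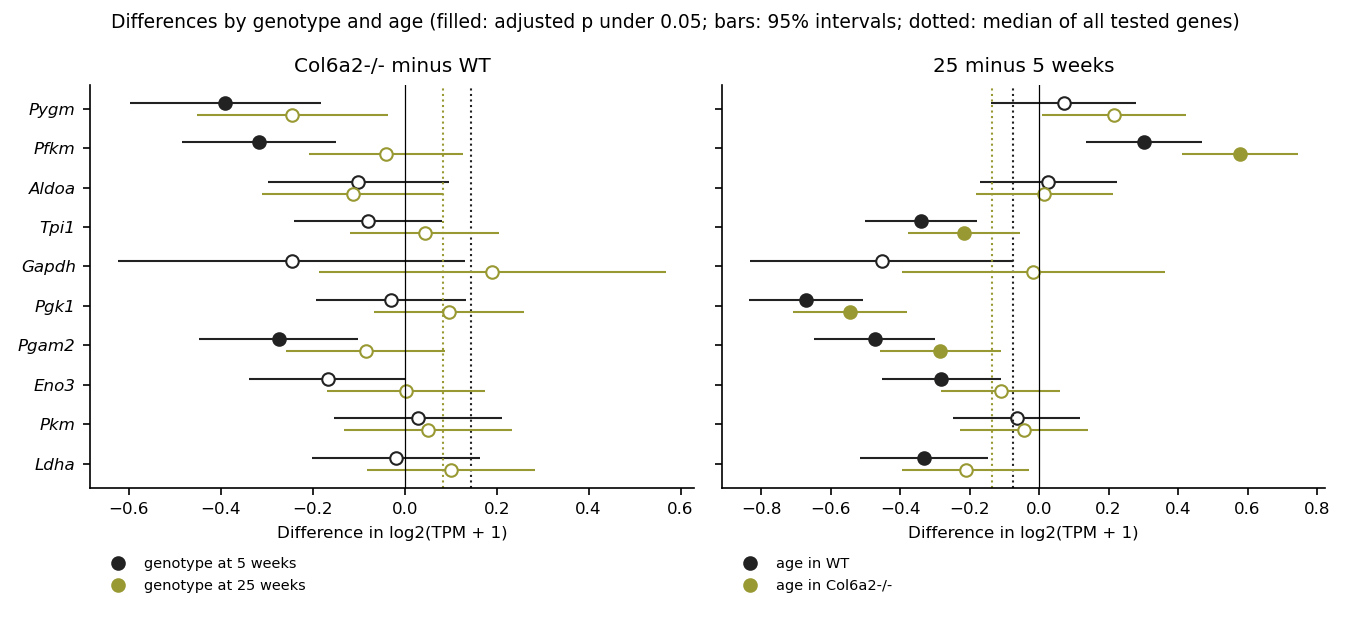
Differences in log2(TPM + 1) (horizontal axes) between genotypes at each age (left) and between ages in each genotype (right), with 95% intervals and filled points where the limma adjusted p was under 0.05. Dotted lines give the median of all tested genes. Only Pygm, Pfkm and Pgam2 are filled for genotype at 5 weeks in TPM, where median-ratio scaling would call 9 genes. Under other scalings the age calls of Eno3, Ldha and Tpi1 in WT and of Tpi1 and Pgam2 in Col6a2-/- were lost, and uncalled genes such as Pkm and Aldoa changed sign.

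By sex, the female comparison at 5 weeks called 0 of the 10 genes by limma, beside 12.9% of all genes (3749 of all genes had an unadjusted p under 0.05). Over the alternatives, 0 to 3 genes were lower in females and 0 to 5 in males, with the most under median-ratio scaling. That scaling put the median of all genes at -0.003 in females and -0.002 in males, beside 0.17 and 0.12 in TPM. Shares of all genes are given for deposited TPM only, so these ranges have no such share beside them. In females Pfkm had the smallest adjusted p in TPM, 0.0654, with a difference of -0.32. The male comparison called 1 gene, Pygm, lower by 0.49 (SE 0.144, limma adjusted p = 0.0420), beside 5.03% of all genes called and 0.484% lower. This male call was lost in 6 of 32 fits that left out 1 library, namely without replicate 1, 2 or 4 of either genotype, and in 4 of 16 other alternatives. Over the 32 fits the difference ranged from -0.60 to -0.41 and the limma adjusted p from 0.0174 to 0.134. Pgam2 was next in males with -0.40 (limma adjusted p = 0.0505). The difference between the sexes in the genotype effect was tested only as an average over both ages. In that test 0 of the 10 genes passed, beside 0.0156% of all genes (206 of all genes had an unadjusted p under 0.05). A male and a female response averaged over ages are therefore not shown to differ. Sex differences of opposite sign at the younger and older age would cancel in this average, and the one at 5 weeks alone was not tested.

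**Figure D3:**
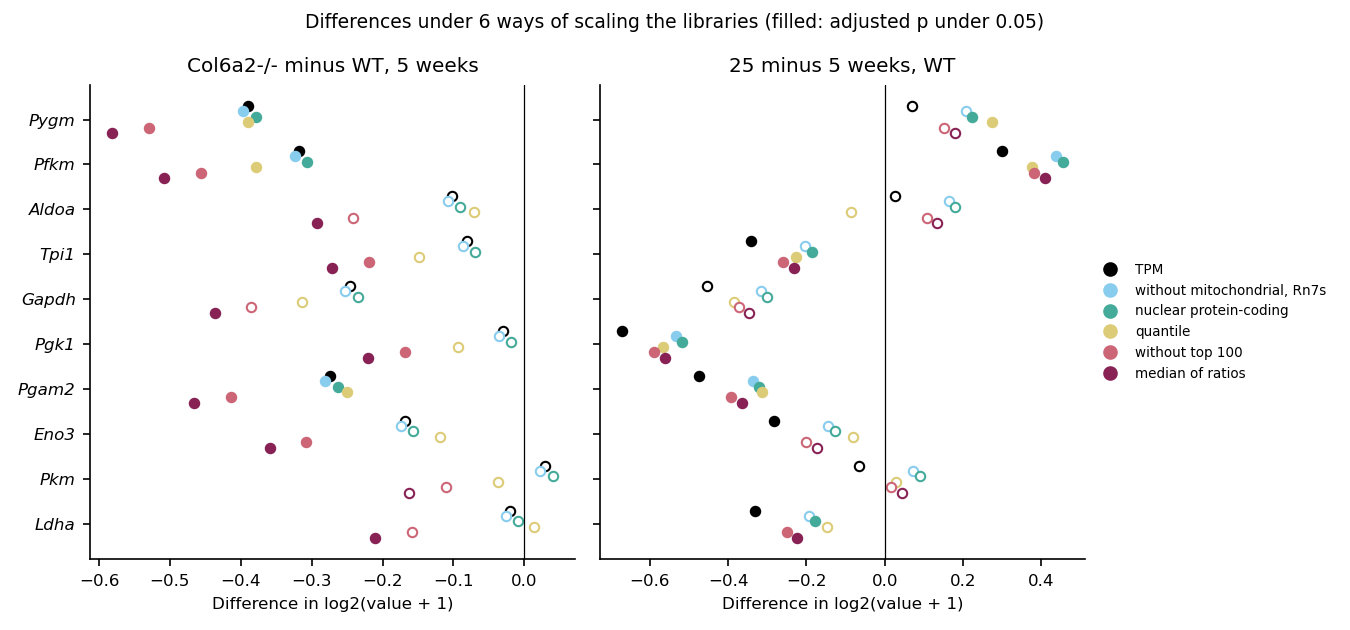
Differences in log2(value + 1) (horizontal axes) for genotype at 5 weeks (left) and for age in WT (right) under 6 ways of scaling the libraries, filled where the limma adjusted p was under 0.05. Pygm, Pfkm and Pgam2 on the left, and Pfkm, Pgk1 and Pgam2 on the right, are filled under all 6, whereas Tpi1, Eno3 and Ldha are filled under some, and Pkm crosses 0 in both panels.

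At 25 weeks, 0 of the 10 genes passed the test between genotypes by limma, beside 4.7% of all genes called and 0.234% lower (2469 of all genes had an unadjusted p under 0.05). Pygm again had the lowest value, with 776 to 1271 TPM (median 931) in WT and 660.0 to 935 TPM (median 807) in Col6a2-/- mice. The difference was -0.24 (SE 0.102, limma adjusted p = 0.174), and 7 of 8 Col6a2-/- mice were below the WT mean of their sex. The call was made under 3 of the 16 alternatives, namely median-ratio scaling, leaving out the 100 most abundant genes, and rescaling over nuclear protein-coding genes. Pfkm had near-equal medians of 541 TPM in WT and 540.5 TPM in Col6a2-/- mice, with a difference of -0.04 (95% interval -0.21 to 0.13). Pgam2 had medians of 611 and 589 TPM and a difference of -0.09 (interval -0.26 to 0.09). The median over the 10 genes was 0.02, beside 0.08 over all genes, and 7 of 10 lay below the latter.

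No call was made in either sex at 25 weeks: limma called 0 of 10 in females, beside 0.0078% of all genes, and 0 of 10 in males, beside 3.03% of all genes. At an unadjusted p under 0.05 there were 621 genes in females and 2532 in males. The change of the genotype effect from 5 to 25 weeks was tested too, and 0 of the 10 genes passed, beside 0.492% of all genes (898 of all genes had an unadjusted p under 0.05). Pfkm had the smallest adjusted p of the 10 in that test, with 0.28 (limma adjusted p = 0.555). The lower Pygm, Pfkm and Pgam2 at 5 weeks and the missing calls at 25 weeks are thus not shown to be different effects.

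In deposited TPM, 6 of the 10 genes passed the test between ages in WT mice and 4 in Col6a2-/- mice, counts that ranged from 3 to 7 and from 3 to 5 over the alternatives. In WT muscle, Pgk1, Pgam2, Tpi1, Ldha and Eno3 were lower at 25 than at 5 weeks and Pfkm was higher, 5 and 1 of 10, beside 19.8% of all genes called, 15.3% lower and 4.47% higher. In Col6a2-/- muscle, Pgk1, Pgam2 and Tpi1 were lower and Pfkm was higher, 3 and 1 of 10, beside 34.2% of all genes called, 28.8% lower and 5.41% higher. The median over the 10 genes was -0.31 in WT (all genes -0.08) and -0.08 in Col6a2-/- (all genes -0.14). The share of the 10 genes that was lower in Col6a2-/- mice is thus near that of all genes. The called genes did not all move one way, since Pfkm was higher in both genotypes. Some markers of fibres and other cells also differed with age, beside the 15.3% of all genes lower in WT and 28.8% in Col6a2-/- mice. In each genotype 5 of 15 fast-fibre genes and 5 of 10 fibroblast markers were lower, with 1 fibroblast marker higher in Col6a2-/- mice. In WT and Col6a2-/- mice, 3 and 5 of 5 Schwann cell, 1 and 9 of 10 macrophage, and 5 and 9 of 11 regeneration genes were lower. For endothelium 2 of 7 markers were lower in each genotype, and for slow fibres 0 of 10 in WT and 1 of 10 in Col6a2-/- mice. Of 7 adipocyte and 5 tested erythrocyte markers, 0 were called in either genotype. The fast-fibre share in Col6a2-/- mice was near that of all genes, and the macrophage share in WT was below it. The part of these cell types in the age differences was not tested.

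Pgk1, phosphoglycerate kinase, was the 1 gene of the 10 whose ages did not overlap. In WT mice its level ran from 237 to 375 TPM (median 310.4) at 5 weeks and from 175 to 216 TPM (median 191) at 25 weeks. In Col6a2-/- mice it ran from 231 to 359 TPM (median 295) and from 178 to 229.7 TPM (median 206). The ages did not overlap in either genotype, in a comparison where 2.3% of all genes in WT and 1.88% in Col6a2-/- mice were lower without overlap. The means were 307 ± 40.7 and 191 ± 14.5 TPM in WT (difference -0.67, SE 0.0800, limma adjusted p = 5.4e-07) and 301 ± 41.0 and 205 ± 17.2 TPM in Col6a2-/- mice (difference -0.54, SE 0.0800, limma adjusted p = 6.7e-06). Both calls held under all 16 alternatives and all 32 fits without 1 library.

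Pfkm moved the other way. At 25 weeks it ran from 503 to 604 TPM in WT and from 455 to 613 TPM in Col6a2-/- mice, above the 5-week ranges but for a narrow overlap in each genotype. The mean rose from 445 ± 42.8 to 547 ± 38.3 TPM in WT (difference 0.30, SE 0.0817, limma adjusted p = 0.00916) and from 358 ± 48.6 to 534 ± 59.1 TPM in Col6a2-/- mice (difference 0.58, SE 0.0817, limma adjusted p = 3.8e-06). In each genotype 8 of 8 older mice were above the 5-week mean of their sex, and these calls also held under every alternative and every fit without 1 library. As a share of the 10 genes, Pfkm went from a median of 5.08 to 6.93% in WT and from 4.41 to 6.90% in Col6a2-/- mice, while Pgk1 went from 3.51 to 2.39% and from 3.84 to 2.67%.

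Pgam2 fell from 859.7 ± 135 to 615 ± 62.0 TPM in WT (difference -0.47, limma adjusted p = 0.000207) and from 709 ± 104 to 582 ± 82.3 TPM in Col6a2-/- mice (difference -0.28, limma adjusted p = 0.0108), the latter call being lost in 5 of 16 alternatives. The older WT mice, at 528 to 715 TPM, overlapped only the edge of the younger ones, at 701 to 1015 TPM. Tpi1 ran from 398 to 540.1 TPM at 5 weeks and from 332 to 403 TPM at 25 weeks in WT, with means of 464 ± 46.2 and 366 ± 26.0 TPM (difference -0.34, limma adjusted p = 0.00281), a call lost in 2 alternatives. In Col6a2-/- mice Tpi1 had means of 440.3 ± 55.9 and 378 ± 39.1 TPM (difference -0.22, limma adjusted p = 0.0343), a call lost in 8 of 16 alternatives and in 7 of 32 fits without 1 library. The libraries in question were females 1 and 2 and male 3 at 5 weeks, and females 1, 2 and 3 and male 2 at 25 weeks, and over the 32 fits the difference ranged from -0.27 to -0.17 and the limma adjusted p from 0.00825 to 0.0962. The older and younger WT mice overlapped more for Ldha (482 to 688 and 590 to 784 TPM) and Eno3 (1182 to 1568 and 1406 to 1856 TPM). In WT, Ldha fell from 715 ± 74.6 to 569 ± 68.3 TPM (difference -0.33, limma adjusted p = 0.00881) and Eno3 from 1668 ± 143 to 1375 ± 147 TPM (difference -0.28, limma adjusted p = 0.0169), calls lost in 3 and 6 of 16 alternatives. In Col6a2-/- mice Ldha differed by -0.21 (limma adjusted p = 0.0678) and Eno3 by -0.11 (limma adjusted p = 0.319). Both of these genotypes' age comparisons use different mice, and the difference between them is the test of genotype by age given above, which 0 of the 10 genes passed.

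Pygm, Aldoa and Pkm did not pass the age test in either genotype in TPM. Pygm differed by 0.07 in WT (95% interval -0.14 to 0.28) and by 0.22 in Col6a2-/- mice (interval 0.01 to 0.42, limma adjusted p = 0.101). The WT difference was called higher after quantile normalization (0.27) and after rescaling over nuclear protein-coding genes (0.22), and the Col6a2-/- difference was called higher under 7 of the 16 alternatives, all of which change the scale of the libraries. Aldoa differed by 0.03 (interval -0.17 to 0.22) and 0.01 (interval -0.18 to 0.21), and Pkm by -0.06 (interval -0.25 to 0.12) and -0.04 (interval -0.23 to 0.14). Between the sexes, averaged over ages and genotypes, 0 of the 10 genes passed, beside 3.05% of all genes (1689 of all genes had an unadjusted p under 0.05). Pgam2 came closest, with 0.17 toward males (SE 0.0601, limma adjusted p = 0.162).

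Within libraries the isozymes better known from other tissues or from slow fibres stood below the muscle isozymes. They stood far below except for Ldhb, whose log2 ratio to Ldha reached -2.06 in a Col6a2-/- mouse at 25 weeks. For 5 of 8 pairs at 5 weeks and 6 of 8 at 25 weeks the ratio to the muscle form was higher in Col6a2-/- muscle. A ratio of 2 genes of the same library depends on how that library was scaled only through the added pseudocount; the ratios were recomputed with a pseudocount of 0.1 and with the highest row per gene ID in place of the sum, and not after rescaling. No background over other gene pairs was computed: at 5 weeks the median difference was 0.15 over all genes and -0.13 over the 10 muscle genes, and whether a higher ratio is particular to the isozymes was not tested. The 8 pairs tested set Pygb and Pygl against Pygm, Pfkl and Pfkp against Pfkm, Aldoc against Aldoa, Pgam1 against Pgam2, Eno1 against Eno3, and Ldhb against Ldha, each in 4 comparisons. Pairs that share Pygm or Pfkm are not separate observations. Since Pygm, Pfkm and Pgam2 were themselves called lower at 5 weeks, their ratios at that age in part restate those calls. By an exact permutation test within sex (4900 splits, two-sided, Benjamini-Hochberg adjusted over the 32 tests), 18 of 32 passed, none of the ratios was lower in Col6a2-/- mice among them, and leaving out 1 library gave 15 to 21. The mean levels of these isozymes over all libraries were 3.96 TPM for Pygb, 3.38 for Pygl, 2.50 for Pfkl, 3.90 for Pfkp, 0.130 for Aldoc, 4.84 for Pgam1, 30.1 for Eno1 and 68.4 for Ldhb.

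Eno1, the enolase of most other cells, ran from 20.4 to 39.1 TPM (median 31.0) in WT and from 27.2 to 59.3 TPM (median 46.2) in Col6a2-/- mice at 5 weeks. Relative to Eno3, the log2 ratio had medians of -5.70 in WT and -4.90 in Col6a2-/- mice, with an overlap of the ranges, and its mean differed by 0.74 (exact permutation test, adjusted p = 0.00435). At 25 weeks the difference was 0.48 (exact permutation test, adjusted p = 0.00435). Pgam1, the mutase of other tissues, had a median of 4.60 TPM in WT and 6.75 TPM in Col6a2-/- mice at 5 weeks, and its ratio to Pgam2 was higher by 0.75 (exact permutation test, adjusted p = 0.00435) and at 25 weeks by 0.51 (exact permutation test, adjusted p = 0.00435).

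The liver and platelet forms of phosphofructokinase behaved likewise at lower levels. Pfkl relative to Pfkm was higher in Col6a2-/- mice by 0.78 at 5 weeks (exact permutation test, adjusted p = 0.00594) and by 0.31 at 25 weeks (exact permutation test, adjusted p = 0.0131). Pfkp relative to Pfkm was higher by 0.70 at 5 weeks (exact permutation test, adjusted p = 0.0253), a call lost in 2 fits without 1 library. At 25 weeks Pfkp ran from 1.13 to 4.13 TPM in WT and from 3.13 to 5.94 TPM in Col6a2-/- mice. Its ratio to Pfkm was then higher by 0.63 (exact permutation test, adjusted p = 0.00435), and the genotypes did not overlap in that ratio.

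For phosphorylase, Pygb, the brain form, relative to Pygm was higher in Col6a2-/- mice by 0.65 at 5 weeks (exact permutation test, adjusted p = 0.00522) and by 0.52 at 25 weeks (exact permutation test, adjusted p = 0.0140). Pygl, the liver form, relative to Pygm was higher by 0.65 at 25 weeks (exact permutation test, adjusted p = 0.0235), and at 5 weeks differed by 0.80 with adjusted p = 0.0684 in the exact permutation test, where a Col6a2-/- mouse reached 12.7 TPM of Pygl. Aldoc relative to Aldoa and Ldhb relative to Ldha did not pass at either age, with Ldhb to Ldha at 0.22 and 0.38. Ldhb, the heart form used by slow fibres, varied widely within groups, from 10.9 to 104 TPM among WT mice at 25 weeks.

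With age, the ratio to the muscle form was lower at 25 weeks for Pfkl (-0.39) and Eno1 (-0.45) in WT mice, with exact permutation adjusted p = 0.0140 and 0.00435. In Col6a2-/- mice it was lower for Pygb (-0.43), Pfkl (-0.86), Pfkp (-0.60) and Eno1 (-0.71), and higher for Ldhb relative to Ldha (1.21), with exact permutation adjusted p from 0.00522 to 0.0327. The Pygb and Pfkp calls were lost in 5 and 6 fits without 1 library, and the Pfkp call also with a pseudocount of 0.1 (exact permutation test, adjusted p = 0.0602). In WT mice the Ldhb ratio differed by 1.04 without passing (exact permutation test, adjusted p = 0.0575).

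**Figure D4:**
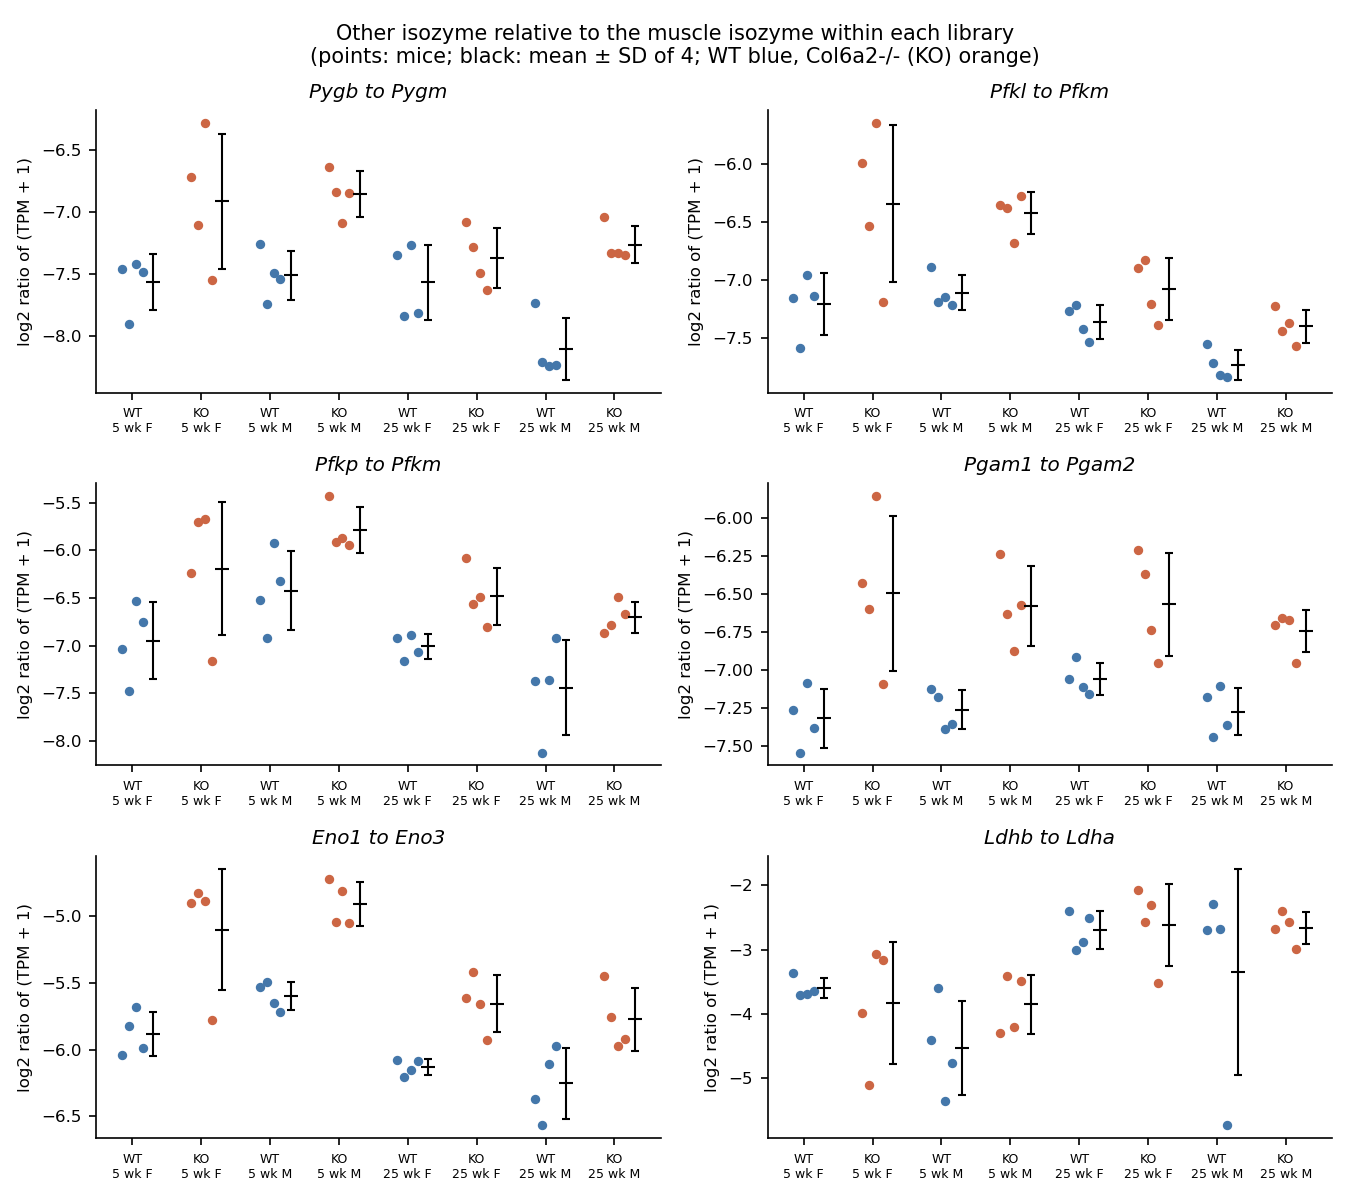
Log2 ratio of (TPM + 1) of another isozyme to the muscle isozyme within each library (vertical axes) for 6 of the 8 pairs, by age, sex and genotype. Points are mice and black marks the mean ± SD of 4. The Col6a2-/- means sit above WT at both ages for Pygb, Pfkl, Pfkp, Pgam1 and Eno1 with overlap except for Pfkp at 25 weeks, and the Ldhb ratio spreads widely within groups.

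Genes that do not encode the 10 enzymes but act in the same pathways were read from lists, given as the number called lower or higher in Col6a2-/- muscle at 5 weeks in TPM. The phosphorylase kinase subunits of muscle, which switch glycogen phosphorylase on, were lower: Phkb from 57.0 ± 4.93 to 43.4 ± 8.86 TPM (difference -0.41, limma adjusted p = 0.00320), Phkg1 by -0.36 (limma adjusted p = 0.0169) and Phka1 by -0.36 (limma adjusted p = 0.0190). The subunit genes Phkg2 (0.28) and Phka2 (0.28), which are prominent in liver, and Pgm1 (0.29) were higher, with group means of 1.35 to 3.45 TPM, and the calls of Phka2, Phkg2 and Pgm1 were lost in 5, 2 and 2 alternatives, and those of Phka2 and Pgm1 in 11 and 1 fits without 1 library. The Phka1 call was lost when only the compared libraries were fitted (limma adjusted p = 0.0507) and without Col6a2-/- female 3 (limma adjusted p = 0.0501). Thus 3 of the 13 tested genes of glycogen breakdown were lower and 3 higher, with a median of -0.20, beside 2.14% of all genes lower and 23.2% higher, so the share of the list that was higher is near that of all genes. Over the alternatives the list had 2 to 9 lower and 0 to 3 higher. Pgm2, the abundant phosphoglucomutase gene here, had means of 228 ± 17.8 TPM in WT and 199 ± 35.5 TPM in Col6a2-/- mice and differed by -0.21 (limma adjusted p = 0.102). Among 12 tested genes of glycogen synthesis, 1 was lower, Ppp1r3a (-0.40), which targets a phosphatase to glycogen, and Stbd1 (0.55) and Gbe1 (0.41) were higher, 2 of 12 beside 23.2% of all genes. The Gbe1 call was lost in 6 of 16 alternatives and 7 of 32 fits without 1 library, and the Stbd1 call in 2 of each.

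Of 10 tested genes that control glycolytic flux, 4 were lower and 1 was higher at 5 weeks, with a median of -0.33, beside 2.14% of all genes lower and 23.2% higher. Over the alternatives 1 to 6 were lower and 0 to 1 higher. Tigar, a phosphatase of fructose bisphosphates, ran from 10.1 to 15.7 TPM in WT and from 6.68 to 9.68 TPM in Col6a2-/- mice without overlap, a difference of -0.50 (SE 0.0933, limma adjusted p = 0.000270). Such separation downward was seen for 0.125% of all tested genes. Prkaa2, a catalytic subunit of AMP-activated kinase, was lower by 0.32 and Bpgm by 0.39, with calls lost in 1 and 2 alternatives and in 3 and 7 fits without 1 library. Pfkfb3 differed by -0.73 and lost its call in 4 alternatives, a block on replicate number among them, and in 10 fits without 1 library. Pfkfb2, another isoform that sets fructose 2,6-bisphosphate, was higher by 0.34 with a call lost in 2 alternatives. Among 20 tested genes of pyruvate entry and the NADH shuttles, 1 was lower and 2 were higher, a smaller share higher than among all genes. Gpd2, the mitochondrial glycerol 3-phosphate dehydrogenase, was lower (-0.59, SE 0.118, limma adjusted p = 0.000534), and Pdk3 (0.36) and Pdhx (0.24) were higher, the latter with a call lost in 6 alternatives and 8 fits without 1 library. None of 6 tested glucose and lactate transporter genes and none of 16 citric acid cycle genes was called by limma at 5 weeks in TPM, and over the alternatives at most 1 transporter gene was called in either direction and at most 1 citric acid cycle gene lower.

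Other isozymes of glycolysis and glycogen breakdown, hexokinases included, gave 4 higher and 0 lower of 11 tested genes at 5 weeks, beside 23.2% of all genes higher: Hk1 (0.45), Eno1 (0.57), Pgam1 (0.48) and Pfkl (0.46), the last with a call lost after quantile normalization. The list had 2 to 5 higher over the alternatives. At 25 weeks Pgam1 (0.43), Pfkp (0.59) and Eno1 (0.48) were higher, 3 of 11 beside 4.47% of all genes, with calls lost in 5, 1 and 4 of 16 alternatives and in 5, 9 and 10 of 32 fits without 1 library. Of 19 transcription factors tied to glycolytic genes, 2 were higher at 5 weeks, a smaller share than among all genes: Tead4, a factor that binds M-CAT elements, went from 0.700 ± 0.180 to 1.93 ± 0.401 TPM without overlap (1.18% of all genes were higher without overlap; difference 0.78, limma adjusted p = 1.1e-06), and Mef2a rose by 0.40 with a call lost in 7 of 16 alternatives and 19 of 32 fits without 1 library. In all the other pathway lists, 0 genes were called at 25 weeks by limma in TPM. Some alternatives did call genes there: up to 5 lower and 2 higher for glycogen breakdown, 2 lower for the transcription factors, 1 lower and 1 higher for pyruvate entry, and 1 higher each for glycogen synthesis and flux control.

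Markers of other cell types were read beside the background of all genes, 23.2% higher and 2.14% lower at 5 weeks and 4.47% higher at 25 weeks. All 10 macrophage markers were higher in Col6a2-/- muscle at 5 weeks, with summed levels of 72.6 to 123 TPM in WT and 111 to 386 TPM in Col6a2-/- mice, and 8 of 10 were higher at 25 weeks (47.9 to 128 and 123 to 231 TPM). The fibroblast list had 5 of 10 higher at 5 weeks (summed 1116 to 2347 TPM in WT and 922 to 2872 TPM in Col6a2-/- mice) and 6 of 10 at 25 weeks (455.5 to 891 and 894 to 1371 TPM). Of 11 tested genes of satellite cells and regeneration, 10 were higher at 5 weeks and 2 at 25 weeks. Fast-fibre genes were lower in 8 of 15 at 5 weeks and 0 of 15 at 25 weeks in TPM, with 4 to 13 and 0 to 10 lower under the alternatives, and their summed mean at 5 weeks was 58663 TPM in WT and 47935 TPM in Col6a2-/- mice. Of 10 slow-fibre genes, 1 was higher at 5 weeks and 0 at 25 weeks, and their summed level spread from 304 to 1407 TPM among WT mice at 5 weeks alone. The median difference of this list was 0.33 at 5 weeks (-0.21 in females and 0.82 in males). At 25 weeks it was 0.87 (0.19 in females and 1.42 in males). Endothelial markers gave 2 of 7 higher at 5 weeks, near the background share, and adipocyte, erythrocyte and Schwann cell markers gave 0 at either age in TPM. With only the compared libraries fitted, 1 of 7 adipocyte markers was called higher at 25 weeks. The median difference of the adipocyte markers was 0.41 at 5 weeks and 0.67 at 25 weeks (0.08 in females and 1.21 in males). The part of these cell types in the lower Pygm, Pfkm and Pgam2 or in the higher ratios of the other isozymes was not tested.

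Gapdh needs its own account because the mouse genome holds many processed copies of it. The gene lies at chr6:125161715-125166467 on the minus strand of GRCm38, and 86 other annotated genes matched its transcripts at 95% identity or more over at least 300 bases. Of these, 26 averaged 1 TPM or more, and together the copies held 85.0 to 93.0% of the summed TPM of Gapdh and its copies (median 87.8%). Coding bases 355 to 415 of Gapdh and of the 4 most abundant copies are shown because they hold the single base at which Gm5559 and Gm12070 each differ from Gapdh. Positions are counted from 1 at the first coding base, sequences are from GENCODE M21 transcripts, and capitals in Gapdh mark the bases that differ in a copy, while capitals in a copy mark its own base.
Gapdh: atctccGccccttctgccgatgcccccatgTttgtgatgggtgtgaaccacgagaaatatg
Gm5559: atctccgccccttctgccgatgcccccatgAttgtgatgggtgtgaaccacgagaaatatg
Gm7336: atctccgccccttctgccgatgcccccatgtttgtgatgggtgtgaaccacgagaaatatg
Gm12070: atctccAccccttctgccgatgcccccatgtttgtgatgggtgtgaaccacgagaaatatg
Gm2606: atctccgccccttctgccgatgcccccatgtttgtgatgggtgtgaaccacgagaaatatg
Gm7336 matched Gapdh over all 1002 coding bases, and Gm5559, Gm12070 and Gm2606 each differed at 1 base, T385A, G361A and C583T, with the base of Gapdh first. Reads of 150 bases can then match several of these genes equally well, and Gm5559 (303.5 TPM), Gm7336 (258 TPM), Gm12070 (237 TPM) and Gm2606 (198 TPM) each averaged more than Gapdh itself. How much of this signal is transcription of the copies cannot be told apart from reads of Gapdh.

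In 6 of the 32 libraries the Gapdh TPM was 86.4 to 112, below the 137 to 226 TPM of the other 26. They were a WT female and a WT male at 25 weeks, a Col6a2-/- female and 2 Col6a2-/- males at 5 weeks, and a Col6a2-/- female at 25 weeks. In the same 6 libraries the deposited coverage of Gapdh per unit of its TPM, relative to the other 9 genes, was 1.71 to 1.80, beside 0.797 to 1.02 in the others. With coverage put on the TPM scale, the 6 libraries stood at 153 to 205 TPM and the others at 122 to 225 TPM. On that measure the genotype difference at 5 weeks changed from -0.25 in TPM to 0.06, neither of them called. The age difference of Gapdh was -0.45 in WT (limma adjusted p = 0.0845) and -0.02 in Col6a2-/- mice in TPM, and -0.32 and -0.27 by coverage, where both passed. With the copies added in, it was -0.37 and -0.22 and passed in both genotypes.

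**Figure D5:**
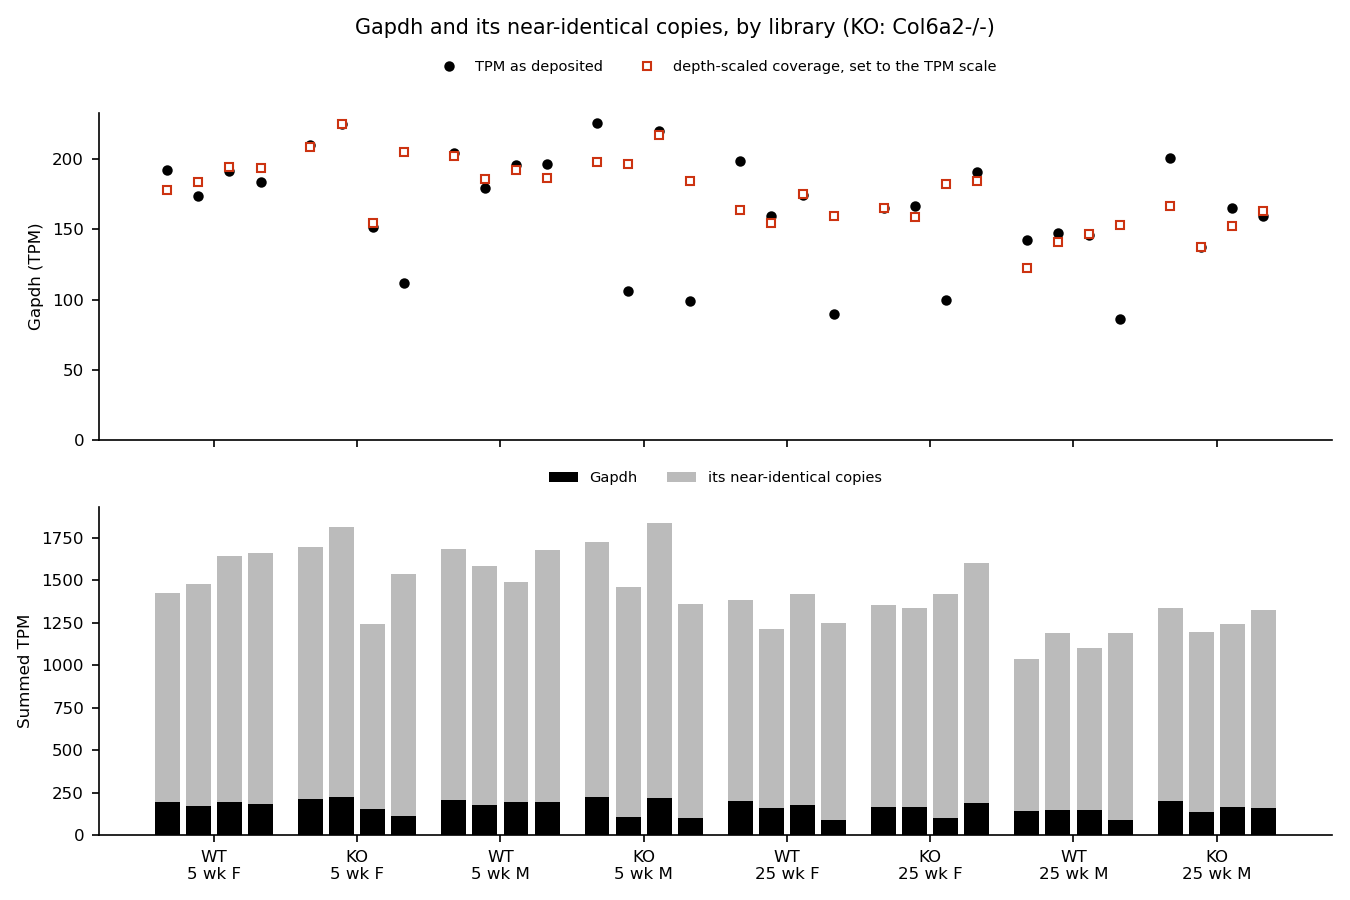
Gapdh in each of the 32 libraries: TPM as deposited beside depth-scaled coverage (top, TPM scale from 0), and Gapdh stacked with its near-identical copies (bottom, summed TPM). In 6 libraries the TPM is 86.4 to 112 while the coverage measure is 153 to 205, and the genotype difference at 5 weeks takes opposite signs on the 2 measures, -0.25 and 0.06, without a call on either.

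The other genes had few copies. The copies of Tpi1 held a median of 10.5% of the summed TPM, those of Pgk1 11.4%, of Pkm 1.70% and of Ldha 0.457%, and Pygm, Pfkm, Aldoa, Pgam2 and Eno3 had none. With copies added to each gene, the same 3 genes were called between genotypes at 5 weeks and 0 at 25 weeks. Genes that overlap the 10 on either strand reached at most 7.26 TPM, and whether the counting used strand is not given in the sources used here.

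Across the 32 libraries the 10 genes varied together to different degrees, given as Pearson r of log2(TPM + 1) without a test, since libraries share groups and scaling. Tpi1 and Pgk1 had r = 0.91 over all libraries and 0.93 after subtracting group means. Pfkm and Pgk1 had r = -0.61 over all libraries and 0.60 after subtracting group means, so they differed between ages in opposite ways and varied together among mice of a group. Gapdh had the lowest r with the other genes within groups, from 0.12 with Pfkm to 0.41 with Pgk1.

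The genes outside the 10 whose pattern over the 32 libraries was most like the mean of the 10 were Gm6992 (r = 0.86), Ak1 (0.84), Tmod1 (0.84), Tmem109 (0.84) and Man2a2 (0.83). After subtracting group means they were Capn1 (r = 0.90), Gm6992 (0.88), Reep1 (0.87), Gm1821 (0.86) and Pgm2 (0.86). Ak1 encodes the adenylate kinase of muscle cytosol and is on the fast-fibre list, Tmod1 a protein that caps actin filaments, and Pgm2 the abundant phosphoglucomutase named above.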

How the data were processed

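RNA sequencing of quadriceps was deposited as 1 StringTie-style table per mouse, 32 in all. Per the file headers the authors give coverage, FPKM and TPM for each gene. The submitters' processing notes name FastQC, MultiQC, Trimmomatic, HISAT2, SAMtools, StringTie and the builds GRCm38 and mm10, with no settings. The deposited TPM and FPKM are normalized by the authors, so no count test was used; the depth in reads is unknown, and only the number of mice and the coverage limit precision. Rows were summed per gene ID. A gene entered the test if 4 or more libraries gave it 1 TPM or more (12817 genes), and it was tested on log2(TPM + 1), a scale that understates changes of low genes, with limma 3.58.1 in R 4.3.3, with means for the 8 groups, an intensity trend, 11 comparisons, and Benjamini-Hochberg adjustment over all genes. Differences were called at an adjusted p under 0.05, and fits were checked on simulated data. Isozyme ratios were tested by exact permutation within sex. Copies were found with blastn 2.17.0, at 95% identity over 300 bases. Each p-value measures the spread between mice, 1 library per mouse, per the labels. All 10 enzyme genes are named; from the pathway lists those called between genotypes are named, up to 6 per list and comparison by smallest adjusted p, and Pgm2 was added after its values were seen. For likeness, the 5 genes with the highest r are named. The genes and lists were chosen with earlier results of these data known. There were 16 alternatives, of which 3 (protein-coding rescaling, coverage, copies) were chosen after seeing the data, beside leaving out each library. Replicate numbers were not taken to pair the mice.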

Additional observations from a re-analysis of the deposited data

Results flagged for a closer look

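In groups of 4 mice, the gap of the highest or lowest mouse to its nearest neighbour was compared with the range of the group (Dixon's criterion), for 10 genes in 8 groups. It was passed in 4 of 80 groups, while chance gives about 1 in 20. Pygm was low in 1 WT female at 25 weeks, at 776 TPM beside 929 to 955 in the other mice. Gapdh was low in 1 WT male at 25 weeks, at 86.4 TPM beside 143 to 147. This male is among the 6 libraries with high Gapdh coverage per unit of TPM. Pgk1 was high in 1 WT male at 5 weeks, at 375 TPM beside 320.3 to 329. Pgam2 was high in 1 WT female at 5 weeks, at 824 TPM beside 701 to 721.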

How the results depend on the processing

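Values are differences in log2(value + 1) or counts of the 10 genes called by limma. The share of all genes called is given for deposited TPM only. Counts under other settings, here and above, therefore have no such share beside them. Over the 16 alternatives, Pygm, Pfkm and Pgam2 at 5 weeks and Pfkm and Pgk1 between ages kept their calls, and the same held without any 1 library. Between genotypes at 5 weeks, 9 genes were called with median-ratio scaling and 6 without the 100 most abundant genes. Pkm then stood at -0.16 and -0.11, and at -0.037 after quantile normalization, where Ldha stood at 0.014. Gapdh stood at 0.059 from coverage. At 25 weeks 1 gene was called with median-ratio scaling, 1 without the 100 most abundant genes and 1 over nuclear protein-coding genes. With median-ratio scaling at 25 weeks Tpi1 stood at -0.077, Pgk1 at -0.024, Eno3 at -0.12, Pkm at -0.070 and Ldha at -0.020. Without mitochondrial and Rn7s genes Tpi1, Eno3 and Pkm stood at -0.029, -0.069 and -0.022, without the 10 genes as well at -0.032, -0.072 and -0.025, and without the 100 most abundant genes at -0.034, -0.074 and -0.027. Quantile normalization gave -0.043 for Tpi1 and -0.068 for Eno3, and FPKM gave -0.012 for Eno3. In females at 5 weeks 3 genes were called with median-ratio scaling, 2 without the 100 most abundant genes, 1 in FPKM and 2 over protein-coding genes. In males at 5 weeks these counts were 5, 4, 2 and 2, with 3 after quantile normalization and 0 without mitochondrial and Rn7s genes, 0 without the 10 genes as well, 0 with no filter and 0 when only the compared libraries were fitted. In males at 25 weeks 1 was called with median-ratio scaling. Between the sexes 1 was called without mitochondrial and Rn7s genes, 1 without the 10 genes as well and 1 over protein-coding genes.

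Between ages in WT, 3 genes were called without mitochondrial and Rn7s genes and 3 without the 10 genes as well. Pkm stood at 0.044 with median-ratio scaling, 0.073 without mitochondrial and Rn7s genes and 0.073 without the 10 genes as well, 0.017 without the 100 most abundant genes, 0.029 after quantile normalization and 0.089 over protein-coding genes, and Aldoa at -0.087 after quantile normalization. In Col6a2-/- mice, in the same order of settings, Gapdh stood at 0.16, 0.055, 0.056, 0.13, 0.065 and 0.14, and at 0.031 in FPKM. Pkm stood at 0.14, 0.028, 0.029, 0.10, 0.087 and 0.11, and at 0.0039 in FPKM. Eno3 stood at 0.069 with median-ratio scaling, 0.032 without the 100 most abundant genes and 0.045 over protein-coding genes, and Aldoa at -0.19 after quantile normalization. The cause of these changes was not tested.

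Leaving out each library in turn gave ranges at 5 weeks of -0.082 to 0.024 for Pgk1, -0.022 to 0.079 for Pkm and -0.067 to 0.029 for Ldha. At 25 weeks they were -0.073 to 0.0028 for Pfkm and -0.044 to 0.052 for Eno3. The count called at 5 weeks was 0 to 1 in females and 0 to 2 in males. Between ages they were -0.0085 to 0.064 for Aldoa in WT, and in Col6a2-/- mice -0.042 to 0.061 for Aldoa, -0.12 to 0.083 for Gapdh and -0.093 to 0.0078 for Pkm. Sign changes in all comparisons of the 10 genes came to 136 over the alternatives and 142 over single libraries left out, and 0 of them involved a call in either fit. Which single-gene results are given one by one was narrowed after their values were seen.

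Replicate numbers were not taken to pair the mice, since the labels do no more than number them. Same-numbered mice of different groups had a mean r of 0.031 in their deviations from the group means, with 35 of 112 pairs over 0.1. For different numbers these values were lower, at -0.010 and 65 of 336 pairs, and the reason was not tested. With the replicate block the counts were 3 and 0 between genotypes and 6 and 4 between ages. One further alternative, leaving out the Col6a2-/- libraries at 5 weeks in which the 10 genes summed lowest, left 1 of the 3 calls. It was removed and nothing is read from it, because choosing samples by the outcome measured favours weaker calls by construction. With 4 mice per group and no read totals, small differences of Gapdh, whose reads can match its copies equally well, are the least certain.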
